A study of Homo sapiens with 4 samples.

Results

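The ING (inhibitor of growth) family and the SIN3 histone deacetylase complex were followed in U87MG cells, an established human glioblastoma line, as 9 of the 57905 genes listed in each count table. The 9 genes are *ING1* with its paralogs *ING2*, *ING3*, *ING4* and *ING5*, the scaffold genes *SIN3A* and *SIN3B*, and the deacetylase genes *HDAC1* and *HDAC2*. *ING1* was selected on its higher counts after chaetocin in these same libraries, so its change is given as a description and without a test, whereas the other 8 genes were taken as its relatives and complex partners. RNA was sequenced from 2 samples of untreated cells and 2 samples of cells given 50 nM chaetocin, a fungal compound described as an inhibitor of histone methyltransferases, for 24 h. All 4 samples carry the genotype label wild type. Chaetocin was added in DMSO while control cells were left untreated, so the compound and its solvent cannot be told apart by design. The labels number the samples but do not say whether they came from separate cultures, and the p-values measure only the spread between these samples.

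ING proteins carry a PHD finger that binds histone H3 trimethylated on lysine 4, a mark of active promoters, and each brings an enzyme complex that changes histone acetylation to such sites. ING1 and ING2 belong to the SIN3 complex, in which SIN3A or SIN3B holds the deacetylases HDAC1 and HDAC2 and represses transcription. ING3 belongs to the TIP60 acetyltransferase complex, ING4 to the HBO1 complex, and ING5 to the HBO1 and MOZ/MORF complexes, which acetylate histones. *ING1* is known as a growth-restraining gene with several isoforms that begin at different first exons.

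The reads of one gene were counted together whichever first exon they came from, so the windows around the annotated starts of *ING1* (ENSG00000153487, chromosome 13, 110712736 to 110723339, plus strand, GENCODE v29 on GRCh38) are shown, with that of its closest paralog *ING2* (ENSG00000168556, chromosome 4, 183504994 to 183511096, plus strand) beside them. RefSeq gave a window for 8 of the 9 genes and 4 windows for *ING1*. Each runs from 250 bases before to 50 bases after a start site of GRCh38.p14, 5′ to 3′ on the strand of the gene. Capitals mark the GC box GGGCGG and the CCAAT box on either strand. The first *ING1* window is chr13:110712373-110712672, the second is chr13:110713011-110713310, the third is chr13:110713450-110713749 and the fourth is chr13:110715187-110715486, and the *ING2* window is chr4:183505848-183506147.
ING1 window 1: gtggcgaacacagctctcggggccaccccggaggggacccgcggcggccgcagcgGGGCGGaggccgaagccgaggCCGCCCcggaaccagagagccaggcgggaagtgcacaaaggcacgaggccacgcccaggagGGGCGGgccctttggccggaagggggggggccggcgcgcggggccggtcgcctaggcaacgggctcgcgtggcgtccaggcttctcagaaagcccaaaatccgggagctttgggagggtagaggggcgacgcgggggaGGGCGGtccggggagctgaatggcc
ING1 window 2: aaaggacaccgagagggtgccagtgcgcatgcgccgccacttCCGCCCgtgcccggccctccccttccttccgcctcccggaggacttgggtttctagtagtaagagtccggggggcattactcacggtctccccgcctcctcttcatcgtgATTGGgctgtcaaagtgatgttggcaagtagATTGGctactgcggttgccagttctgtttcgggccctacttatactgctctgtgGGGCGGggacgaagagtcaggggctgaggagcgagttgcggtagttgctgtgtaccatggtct
ING1 window 3: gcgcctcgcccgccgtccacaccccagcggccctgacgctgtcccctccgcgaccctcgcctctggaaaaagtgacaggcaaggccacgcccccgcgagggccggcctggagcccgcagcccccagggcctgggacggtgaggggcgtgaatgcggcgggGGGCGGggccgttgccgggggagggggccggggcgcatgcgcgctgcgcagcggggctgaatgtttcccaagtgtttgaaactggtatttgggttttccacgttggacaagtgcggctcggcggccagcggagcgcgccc
ING1 window 4: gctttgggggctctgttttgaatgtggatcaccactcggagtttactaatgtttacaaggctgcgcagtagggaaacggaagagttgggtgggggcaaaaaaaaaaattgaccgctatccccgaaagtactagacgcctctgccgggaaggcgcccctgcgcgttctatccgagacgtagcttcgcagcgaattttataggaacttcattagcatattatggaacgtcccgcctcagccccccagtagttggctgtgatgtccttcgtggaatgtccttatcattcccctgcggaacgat
ING2 window: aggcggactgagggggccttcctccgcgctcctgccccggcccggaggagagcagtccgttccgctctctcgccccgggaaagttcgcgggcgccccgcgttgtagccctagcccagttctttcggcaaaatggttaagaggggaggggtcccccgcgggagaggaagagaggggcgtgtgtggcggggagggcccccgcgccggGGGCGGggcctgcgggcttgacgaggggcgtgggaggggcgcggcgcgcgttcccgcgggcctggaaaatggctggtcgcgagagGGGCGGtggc

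The *ING1* windows differed from each other in base composition. Window 1 had 75.0% G and C, 34 CpG sites and 4 GC boxes, and window 3 had 73.0%, 34 CpG sites and 1 GC box. Window 2 had 60.0% G and C with 2 GC boxes and 2 CCAAT boxes, and window 4 had 51.3% with neither motif. The *ING2* window resembled windows 1 and 3, with 74.0% G and C, 36 CpG sites and 2 GC boxes. The median over 35116 windows was 58.7% G and C and 14 CpG sites, 45% of them held a GC box and 34.6% a CCAAT box. The E-box CACGTG was found in 7.26% of all windows and the core of the antioxidant response element TGACNNNGC in 13.3%, and neither was found in a window of the 8 genes. A match describes letters only, and the counts do not tell which start was used.

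*ING1* had 386 and 452 reads in the control libraries and 892 and 1610 reads in the chaetocin libraries. Scaled to the total of each library with TMM factors (CPM), these are 15.8 and 15.7 CPM in control cells and 41.0 and 45.3 CPM with chaetocin. Both chaetocin libraries lay above both control libraries, and the control libraries were nearly equal. The control mean was 15.8 ± 0.0614 CPM and the chaetocin mean 43.2 ± 3.06 CPM (SD, n = 2), with a fitted log2 fold change of 1.45. This put *ING1* at rank 635 of the 16416 genes tested when ordered from the largest log2 fold change down. The log2 fold change was between 1.37 and 1.53 under 11 other settings, which left out each library in turn or changed the normalization, filter, block or tool. All of these used the libraries in which *ING1* was selected, so the range is a description and lends no support to the rise. At its 5′ end *ING1* lies head to head with *CARS2*, a mitochondrial cysteinyl-tRNA synthetase gene on the opposite strand. The exons of the 2 genes overlap there by 326 bases, and 4.93% of the 50-base words in *ING1* transcripts also occur in another gene. *CARS2* had 264 and 315 CPM in control cells and 246 and 274 CPM with chaetocin, so its groups overlapped while those of *ING1* did not. Whether the counting used strand is not given in the sources used here, and the part of *CARS2* reads in the *ING1* count was not tested.

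**Figure D1:**
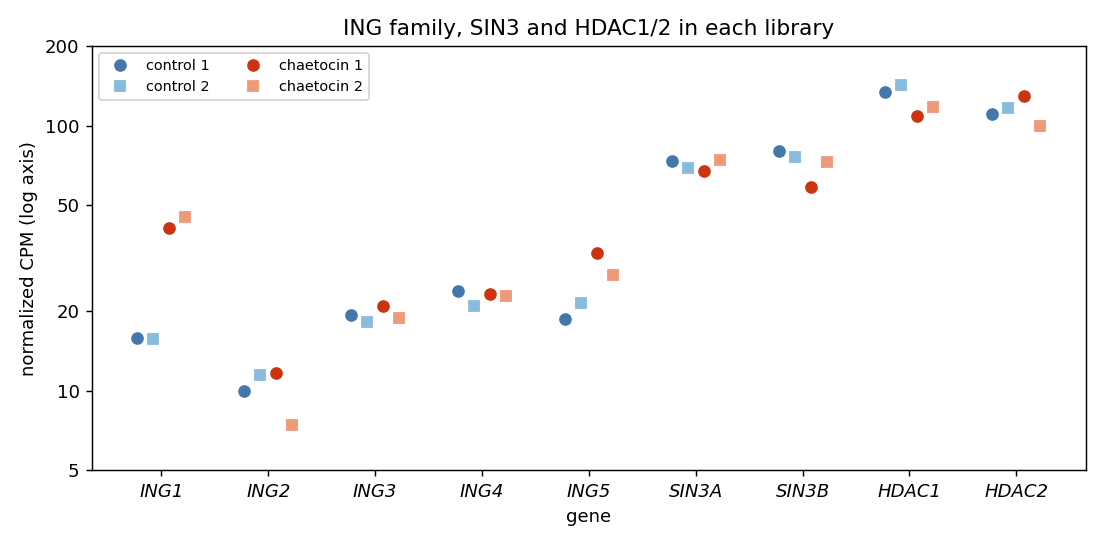
Normalized CPM (log axis) of the 9 genes in each of the 4 libraries, with blue symbols for control and red symbols for chaetocin. The chaetocin libraries of *ING1* sit at 41.0 and 45.3 CPM, above the control libraries at 15.8 and 15.7 CPM, and the groups of *ING2*, *ING3*, *ING4*, *SIN3A* and *HDAC2* overlap.

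Differences were tested with the quasi-likelihood test of edgeR, with Benjamini-Hochberg adjustment over all genes tested, and a gene was called at an adjusted p under 0.05. None of the 8 other genes was called, and 1 of them, *ING5*, had an unadjusted p under 0.05, as did 3339 of all 16416 genes tested. DESeq2 also called none of the 8. Among all 16416 genes tested, 1.85% were called, 1.11% as higher and 0.743% as lower with chaetocin. In normalized CPM, 1 of the 8 genes had chaetocin libraries above both control libraries, 2 had them below, and 5 overlapped. Over all genes tested, the groups failed to overlap in 26.8% with chaetocin higher and in 26% with chaetocin lower, so neither count exceeds the background share. In bulk RNA, fewer cells that carry a transcript and less of it per cell cannot be told apart.

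*ING2*, the paralog that shares the SIN3 complex with *ING1*, had 10.0 and 11.4 CPM in control cells and 11.6 and 7.4 CPM with chaetocin. One chaetocin library lay above both controls and the other below both. Its log2 fold change was -0.18 (standard error 0.26, edgeR adjusted p = 0.744), and it was 0.11 without the second chaetocin library. *ING3*, which joins the TIP60 complex, had 19.3 and 18.1 CPM in control cells and 20.8 and 18.8 CPM with chaetocin, with a log2 fold change of 0.08 (standard error 0.17). *ING4*, a subunit of the HBO1 complex, had 23.8 and 20.8 CPM in control cells and 23.2 and 22.8 CPM with chaetocin, with a log2 fold change of 0.04 (standard error 0.17). The groups of both genes overlapped, and edgeR gave an adjusted p of 0.834 for *ING3* and 0.913 for *ING4*.

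*ING5*, found in the HBO1 and MOZ/MORF complexes, had 18.6 and 21.4 CPM in control cells and 33 and 27.4 CPM with chaetocin. Like *ING1*, it had both chaetocin libraries above both controls, though with less distance. The log2 fold change was 0.59 with a standard error of 0.18, and it did not pass the threshold (edgeR adjusted p = 0.118). Without the first chaetocin library the log2 fold change was 0.46, and without the second it was 0.71. DESeq2 gave an adjusted p of 0.132. Whether *ING5* passed the threshold depended on the setting, as given in the last section. An antisense gene that overlaps *ING5* by 210 exonic bases, ENSG00000235351, had 0 reads in both control libraries and 4 and 5 reads with chaetocin, against 454 to 975 reads of *ING5* in the 4 libraries.

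The share of each paralog within the family does not depend on the scaling between libraries. Reads of *ING1* made up 18.1% and 18.0% of the reads on the 5 *ING* genes in control libraries. With chaetocin they made up 31.7% and 37.2%. No interval is given, because *ING1* was selected on these counts. The 95% exact binomial intervals given below for pairs of genes cover only the counting of reads within a library. They leave out the spread between libraries, and they do not allow for PCR copies of one molecule, which are counted apart. *ING4* held the largest share of reads in the first control library with 27.1% and *ING5* in the second with 24.5%, and with chaetocin *ING1* held the largest share of reads in both libraries. Per kilobase of exon the order differed, since *ING1* held 10.4% in both control libraries and 21.2% and 26.4% with chaetocin, below *ING4* with 28% and 30.9% in the chaetocin libraries. The summed level of the 5 genes was 87.6 and 87.4 CPM in control cells and 130 and 122 CPM with chaetocin. Without *ING1* the sum was 71.7 CPM in both control libraries and 88.5 and 76.5 CPM with chaetocin.

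**Figure D2:**
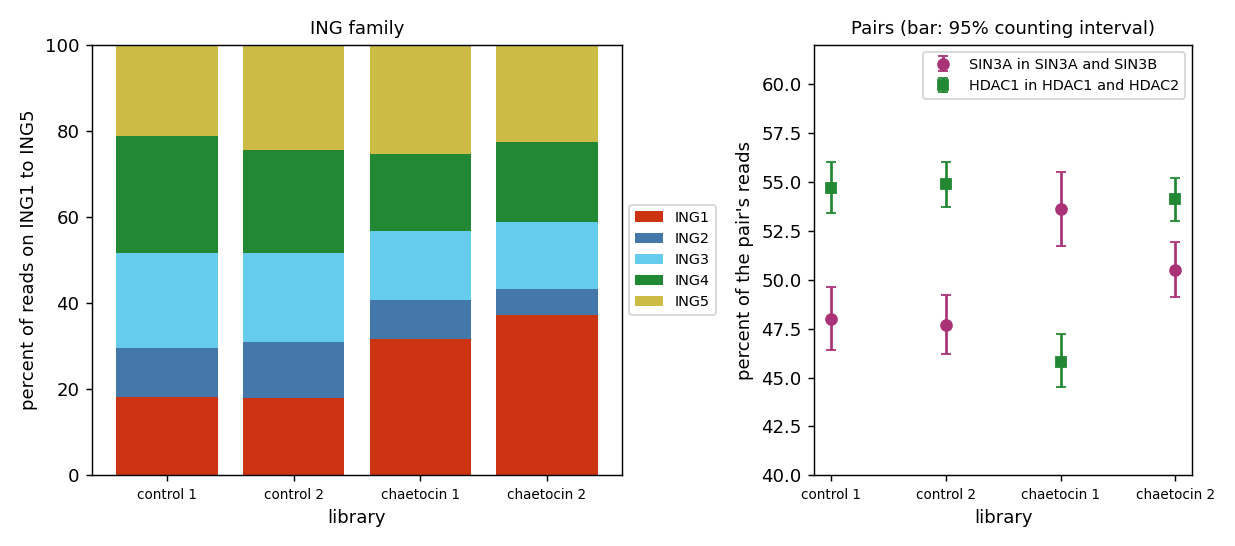
Left, percent of the reads on *ING1* to *ING5* that fell on each gene, for each of the 4 libraries. Right, the percent of the pair's reads that fell on *SIN3A* or *HDAC1*, with 95% exact binomial intervals on an axis that starts at 40%; *ING1* reaches 31.7% and 37.2% with chaetocin, and the first chaetocin library stands apart for *HDAC1* at 45.8%.

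The scaffold genes did not pass the threshold. *SIN3A* had 73.8 and 69.3 CPM in control cells and 67.5 and 74.3 CPM with chaetocin, with overlapping groups and a log2 fold change of -0.01 (standard error 0.14) that was 0.06 with upper-quartile factors. *SIN3B* had 79.9 and 76.0 CPM in control cells and 58.5 and 72.8 CPM with chaetocin. Both chaetocin libraries lay below both controls, and the first stood further off than the second. The log2 fold change of *SIN3B* was -0.25 (standard error 0.16, edgeR adjusted p = 0.423), and it was -0.10 without the first chaetocin library and -0.42 without the second. Within the pair, *SIN3A* took 48.0% and 47.7% of the reads in control libraries and 53.6% and 50.5% with chaetocin. An exact permutation test of 2 against 2 libraries cannot give a p below 0.333, so no test was made of these shares.

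The catalytic subunits were the most abundant of the 9 genes in CPM. *HDAC1* had 134 and 142 CPM in control cells and 109 and 118 CPM with chaetocin, and both chaetocin libraries lay below both controls. Its log2 fold change was -0.28 with a standard error of 0.14 (edgeR adjusted p = 0.318), and it kept its sign under 11 other settings, between -0.34 and -0.20. *HDAC2* had 111 and 117 CPM in control cells and 129 and 100 CPM with chaetocin, so the chaetocin libraries lay on either side of the controls. The log2 fold change of *HDAC2* was 0.01 (standard error 0.16), and -0.01 with DESeq2. *HDAC1* took 54.7% and 54.9% of the reads on the pair in control libraries, 45.8% in the first chaetocin library and 54.1% in the second. Both chaetocin libraries were below the controls, though the counting interval of the second (53 to 55.2) holds both control values. *HDAC2-AS2*, an antisense gene with 69 exonic bases in common with *HDAC2*, had 12 and 4 reads in control libraries and 40 and 79 with chaetocin (log2 fold change 2.72, edgeR adjusted p = 0.0524), against at least 2699 reads on *HDAC2* in each library.

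**Figure D3:**
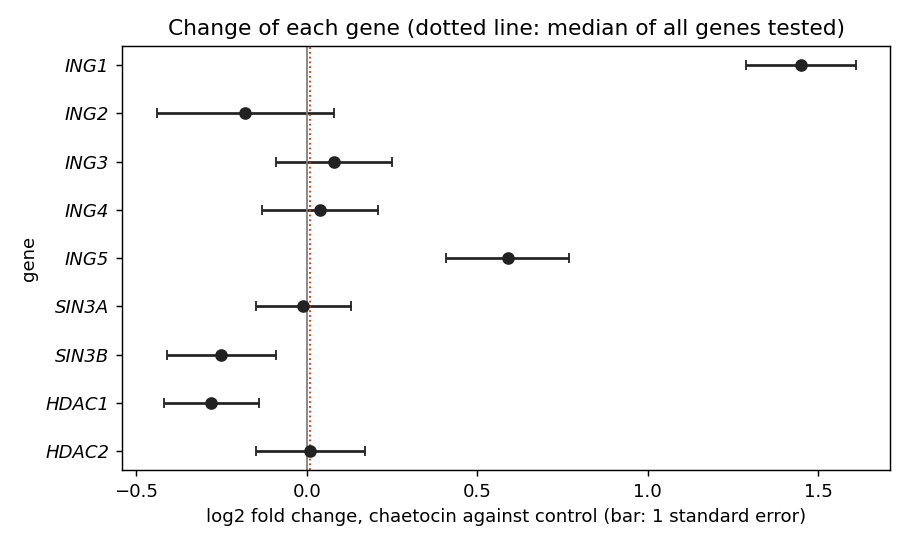
Log2 fold change of chaetocin against control for the 9 genes, with bars of 1 standard error and a dotted line at 0.01, the median of all genes tested. The bar of *ING1* carries no test, because the gene was selected on these libraries. *ING1* lies at 1.45, *ING5* at 0.59 and the other 7 genes between -0.28 and 0.08; the sign of *SIN3A* turns with upper-quartile factors and that of *HDAC2* with DESeq2.

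Levels of different genes were compared per kilobase of annotated exon (CPM divided by the exon length, RPKM). In control cells *HDAC1* was highest with 34.8 ± 1.5 RPKM (SD, n = 2), and *SIN3B* followed with 8.88 ± 0.32 RPKM. *ING4* had 8.14 ± 0.773, *ING2* 7.51 ± 0.665 and *HDAC2* 7.35 ± 0.285 RPKM, and each of these overlapped the gene before it in the order. *SIN3A* was lower with 5.74 ± 0.256 RPKM, then *ING3* with 3.59 ± 0.173, *ING1* with 2.47 ± 0.00961 and *ING5* with 1.95 ± 0.195 RPKM, and these 4 did not overlap each other. With chaetocin *ING1* reached 6.76 ± 0.479 RPKM (SD, n = 2), within the range of *ING2* at 6.67 ± 2.09 RPKM below *ING4* at 8.39 ± 0.101 and above *ING3* at 3.80 ± 0.263 and *ING5* at 2.94 ± 0.38 RPKM. With the longest transcript as the length, *ING1* was lowest in control cells, at 3.08 RPKM against 3.85 RPKM for *ING5*, and *ING2* at 9.01 RPKM came below *HDAC2* at 11.5 and *SIN3A* at 10.6 RPKM.

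Beyond *SIN3A*, *SIN3B*, *HDAC1* and *HDAC2*, 19 further subunits of the SIN3 complex were listed and all were tested. None was called, 10 of the 19 had a log2 fold change above 0, and the median was 0.02, against 50.9% of all genes above 0 and a median of 0.01. *SAP30*, a subunit that stabilizes the complex, had the highest value. It had 47.2 and 44.2 CPM in control cells and 98.6 and 40.4 CPM with chaetocin, so its log2 fold change of 0.60 (standard error 0.36) rested on the first chaetocin library and was -0.18 without it. Without the second chaetocin library it was 1.10. *OGT*, the enzyme that adds N-acetylglucosamine to proteins and binds SIN3A, had the lowest value. Its level was 264 and 235 CPM in control cells and 159 and 156 CPM with chaetocin, with both chaetocin libraries below both controls. The log2 fold change was -0.66 (standard error 0.15, edgeR adjusted p = 0.0642), and -0.76 to -0.59 with a library left out. *OGT* was called with DESeq2 (adjusted p = 0.00666) and without the low-count filter (edgeR adjusted p = 0.00458). It was not called with upper-quartile factors (edgeR adjusted p = 0.0799). DESeq2 called 385 genes as higher and 481 as lower, and the fit without the filter 787 and 759, against 182 and 122 in the fit used here.

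HDAC1 and HDAC2 also serve the NuRD, CoREST and MiDAC complexes. Of the NuRD genes, which join deacetylation to nucleosome remodelling, 10 of 11 were tested and none was called. The median log2 fold change was -0.27 and 1 of 10 lay above 0, *MBD3* with 0.34 (edgeR adjusted p = 0.261), while *CDK2AP1* was lowest with -0.61 (standard error 0.21). *MBD3* was 0.48 without the second chaetocin library and 0.19 without the first. *CDK2AP1* had 64.3 and 53.1 CPM in control cells and 45.8 and 31.5 CPM with chaetocin, and its edgeR adjusted p was 0.154. It was called without the low-count filter (edgeR adjusted p = 0.0151), a setting that called 787 genes as higher and 759 as lower. The log2 fold change of *CDK2AP1* was -0.89 without the first chaetocin library and -0.36 without the second. Of the CoREST genes, whose complex pairs the deacetylases with the demethylase KDM1A, 9 of 10 were tested, 1 was called as lower and the median was -0.26. *ZMYM3*, a zinc finger subunit, fell from 91.0 and 79.3 CPM to 45.8 and 51.2 CPM (log2 fold change -0.81, standard error 0.15, edgeR adjusted p = 0.0424). The call was lost without the first control library (edgeR adjusted p = 0.232), with upper-quartile factors (0.0557) and with at least 10 counts in each library (0.0562). *HMG20B* had the highest value of this list with 0.16. The 4 MiDAC genes had a median of -0.19 and no call, with *TRERF1* lowest at -0.72 (standard error 0.17, edgeR adjusted p = 0.0738) and *ZNF541* highest at 0.12. *TRERF1* was called with DESeq2 (adjusted p = 0.0322) and without the low-count filter (edgeR adjusted p = 0.00982). Both settings called more genes in all. *TRERF1* was not called with upper-quartile factors (edgeR adjusted p = 0.0911), and was -0.83 to -0.62 with a library left out. *HDAC3*, which works in a corepressor complex without SIN3, had a log2 fold change of -0.03 that was 0.05 with upper-quartile factors. It was the highest of the 7 genes listed for its complex, none of which was called, and *TBL1X* was lowest at -0.72 (standard error 0.18, edgeR adjusted p = 0.0816). *TBL1X* was called in the same settings, DESeq2 (adjusted p = 0.015) and edgeR without the low-count filter (adjusted p = 0.00136). It was not called with upper-quartile factors (edgeR adjusted p = 0.0979), and was -0.96 to -0.51 with a library left out.

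**Figure D4:**
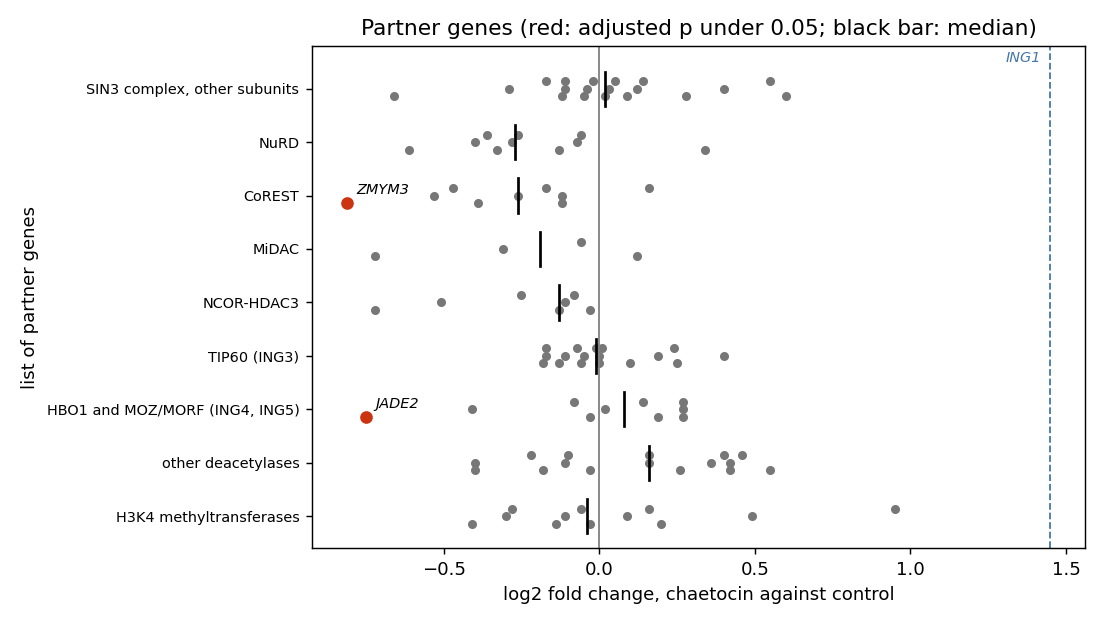
Log2 fold change of chaetocin against control for each tested gene of 9 partner lists, with a black bar at the median of each list and a dashed line at the value of *ING1*, 1.45. Red points are the called genes *ZMYM3* at -0.81 and *JADE2* at -0.75, and no partner gene reaches the value of *ING1*.

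The acetyltransferase partners of the other ING proteins were also read. The 17 genes of the TIP60 complex had a median log2 fold change of -0.01 and no call, from -0.18 for *TRRAP*, a large scaffold, to 0.40 for *VPS72*. Without the second chaetocin library *TRRAP* was -0.49 and *VPS72* 0.62, whereas without the first *TRRAP* was 0.07 and *VPS72* 0.13. In the list of the HBO1 and MOZ/MORF complexes, 1 of 10 genes was called and the median was 0.08. This gene, *JADE2*, a scaffold that directs HBO1 to histones, fell from 131 and 126 CPM to 75.2 and 77.3 CPM (log2 fold change -0.75, standard error 0.14, edgeR adjusted p = 0.0399). The call did not hold without the first control library (edgeR adjusted p = 0.217) or the second (edgeR adjusted p = 0.115), and narrowly failed with upper-quartile factors (0.0503) or at least 10 counts in each library (0.0505). *KAT7*, which encodes HBO1 itself, had the highest value with 0.27, which *JADE3* and *BRD1* shared to 2 decimals. *KAT7* was 0.08 without the second chaetocin library and 0.44 without the first. Of the 16 other deacetylase genes none was called, the median was 0.16, and the values ran from -0.40 for *HDAC11* to 0.55 for *HDAC9*. *HDAC11* was -0.25 without the first chaetocin library and -0.61 without the second. *HDAC9* had 21.3 and 34.5 CPM in control cells and 39.6 and 42.4 CPM with chaetocin. Its log2 fold change was 0.24 without the first control library and 0.93 without the second.

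Genes of the KMT2 and SETD1 methyltransferase family and their shared subunits, the complexes that write the mark bound by ING PHD fingers, were listed as 13 genes, of which 12 were tested and none called, with a median of -0.04. The gene not tested was *KMT2B*, with 0 reads in all 4 libraries under the identifier used. Whether its reads were counted under another identifier was not tested. *SETD1B*, a lysine methyltransferase of promoters, had 34.8 and 36.2 CPM in control cells and 51.9 and 85.3 CPM with chaetocin. Its log2 fold change of 0.95 (standard error 0.23) did not pass the threshold (edgeR adjusted p = 0.0719). It was 1.27 without the first and 0.54 without the second chaetocin library. *SETD1B* was called with DESeq2 (adjusted p = 0.00655) and without the low-count filter (edgeR adjusted p = 2.58e-05), settings that called more genes. It was not called with upper-quartile factors (edgeR adjusted p = 0.0612). *KMT2E*, a family member not known as an active writer, was lowest with -0.41 (standard error 0.16, edgeR adjusted p = 0.209). It was -0.60 without the first chaetocin library and -0.25 without the second. Over the 9 lists, 101 of 104 distinct genes were tested, 0 were called as higher and 2 as lower, against 1.85% of all genes called. An unadjusted p under 0.05 in edgeR was found for 19 of the 101, against 3339 of all 16416 genes, so neither count stands out from the background. DESeq2 called 1 of them as higher and 5 as lower, against 385 and 481 of the 16412 genes it tested. The median of the 101 partner genes was -0.06 with 38.6% above 0, against 0.01 and 50.9% over all genes tested. No test was made of this difference.

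The 5 genes most like *ING1* were those with the smallest distance to it in log2 CPM relative to the control mean over the 4 libraries, among 4489 genes of similar level. They were *APOLD1* (distance 0.116), *LCP1* (0.301), *SMIM13* (0.317), *DLX1* (0.319) and *LRRC57* (0.334). *APOLD1*, known from the endothelium, had 14.3 and 15.0 CPM in control cells and 35.9 and 40.4 CPM with chaetocin. *LCP1*, an actin-bundling protein gene of leukocytes, had 11 and 13.9 CPM in control cells and 30.9 and 40.4 CPM with chaetocin. The distance uses the libraries in which *ING1* was selected, so it describes them and carries no test.

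The libraries held 21241984 to 32590479 counts, and 3 reads correspond to between 0.0844 and 0.138 CPM. Of the markers of a glioblastoma line, *VIM* and *CD44* had 2270 to 2800 CPM in control cells, *GFAP* had 1.02 and 0.87 CPM, and *SOX2* and *S100B* had no read in control cells. The summed level of the 8 glioma markers was 4790 to 5500 CPM in control cells and 1970 to 3220 CPM with chaetocin. That of 5 leukocyte markers was 0.287 to 0.452 CPM in control cells and 2.25 to 2.73 CPM with chaetocin, with *PTPRC* and *ITGAM* called and *CD3E* at 0 reads throughout. The summed levels of the endothelial markers (0.86 to 1.29 against 2.11 to 3.15 CPM) and the epithelial markers (0.942 to 0.974 against 1.75 to 2.53 CPM) were also higher with chaetocin, and those of the neuronal (34.8 to 42.2 against 11.1 to 29.3 CPM) and oligodendrocyte markers (0.348 to 0.369 against 0.184 to 0.281 CPM) were lower, with no marker called in these lists. The part of such transcripts in the *ING1* count was not tested. The chaetocin libraries lay on opposite sides of both controls for 3 of the 9 genes (*ING2*, *SIN3A* and *HDAC2*), for 24.8% of the partner genes and for 16.7% of all genes tested.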

How the data were processed

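Polyadenylated RNA of U87MG cells was amplified by PCR and sequenced as single-end reads. The authors deposited raw counts per Ensembl gene, 1 table per sample, without normalization. The submitters' processing notes name cutadapt, TopHat2, SAMtools and GRCh37, and the counting tool and its strand setting are not given in the sources used here. Symbols came from a table of gene names that matched 51996 of 57905 identifiers. Positions, exon lengths and overlaps came from GENCODE v29 on GRCh38, and promoter windows from RefSeq (GRCh38.p14).

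From the counts, edgeR 4.0.16 in R 4.3.3 was used with filterByExpr at its defaults (minimum count 10), TMM factors of 0.942 to 1.09 and a robust quasi-likelihood fit on all 4 samples without a block. The study's methods name DESeq2, which was an alternative here. Adjusted p-values are Benjamini-Hochberg values over the 16416 genes tested, with a threshold of 0.05. The standard error is the size of the log2 fold change over the root of F, and fold changes carry edgeR's default prior count. Alternatives used DESeq2 1.42.0, other factors and filters, a replicate block, a fit that was not robust, and each sample left out. The scripts were tested on simulated data. The genes and lists were chosen with earlier results of these data known. Named were all 9 genes, in each list up to 4 called genes (smallest p) and the highest and lowest value, and the 5 genes nearest to *ING1* (pseudocount 0.5 CPM). For 1 marker no row was found. Some genes of the lists are not reported here. Protein sequences were not used here.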

Additional observations from a re-analysis of the deposited data

How the results depend on the processing

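With 182 genes called higher and 122 lower, the counts were 787 and 759 without a low-count filter, 114 and 80 when each sample needed 10 counts (the strict filter), 385 and 481 in DESeq2, and 1036 and 1053 with the replicate block. Leaving out a library gave 215 to 1332 higher and 97 to 1673 lower, the largest without the first chaetocin library. Of the 8 genes other than *ING1*, 1 was called higher with the block. This was *ING5*, whose log2 fold change was 0.59 with the block (adjusted p = 0.0207 from edgeR) and 0.46 to 0.71 with a library left out. Same-numbered samples share only a number, their differences correlated across genes with r = 0.191, and the block changed no other call among these 8 genes. Of the named partners, the block added calls for *HDAC9* (edgeR adjusted p = 0.0187), *CDK2AP1* (0.00686), *TRERF1* (0.00521), *OGT* (0.004), *TBL1X* (0.000701) and *SETD1B* (0.00026). Partner genes called higher were 2 without the filter, 4 with the block, 1 with DESeq2 and 0 to 6 with a library left out. Partner genes called lower were 6, 8, 5 and 0 to 14 in the same order, and 0 with upper-quartile factors or the strict filter. The lists hold 104 distinct genes, of which 101 were tested in the fit used here. Over all genes, 31692 were tested without the filter, 16416 with the block, 16412 with DESeq2 and 16819 to 18027 with a library left out. The 14 came without the first chaetocin library, which also gave the most calls over all genes. Partner counts were not tested against the share called over all genes. The sign turned, without a call, for *SIN3A* with upper-quartile factors (0.06) and the strict filter (0.01), for *HDAC2* without the filter (-0.01) and with DESeq2 (-0.01), and for *HDAC3* with upper-quartile factors (0.05). With a library left out, the log2 fold change ran from -0.53 to 0.11 for *ING2*, -0.06 to 0.13 for *ING4*, -0.09 to 0.06 for *SIN3A* and -0.18 to 0.17 for *HDAC2*. For partners it ran from -0.18 to 1.10 for *SAP30*, -0.04 to 0.32 for *HMG20B*, -0.30 to 0.47 for *ZNF541*, -0.14 to 0.08 for *HDAC3* and -0.49 to 0.07 for *TRRAP*. The cause was not tested. The lone sample left in a group is assumed to vary like the other group. With 2 samples per group, small changes were not detectable.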
